A study of Homo sapiens with 6 samples.

Results

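The mRNAs of AMPK subunits and of PGC-1 energy regulators were compared between drug-sensitive and drug-resistant ovarian cancer cells. The 10 genes were *PPARGC1A*, *PPARGC1B*, *ESRRA*, *NRF1*, *TFAM*, *PRKAA1*, *PRKAA2*, *PRKAB1*, *PRKAG1* and *PRKAG2*, chosen by name and found by the symbol that the authors paired with each Ensembl identifier. All 10 were among the 14646 genes of the count table, and all 10 passed the filter on low counts. The main result was mixed. *PPARGC1A* was downregulated in the resistant cells, *PRKAG2*, *ESRRA*, *PRKAB1* and *TFAM* were upregulated, and the other 5 genes did not pass the test.

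The cells were of the ovarian cancer line IGROV1, which carries a *PIK3CA* mutation, in a form sensitive to GDC0032 (IGROV1Sen, 3 libraries) and in a form resistant to it (IGROV1Res, 3 libraries). GDC0032 (taselisib) inhibits the PI3K catalytic isoforms other than p110β. The resistant cells had been derived from the parental line by culture in rising amounts of GDC0032, and 1 resistant derivative of 1 line stands for resistance here. The sample titles include UT, an abbreviation left unexplained there, taken here to mean that no GDC0032 was present. The authors' RNA sequencing methods describe cells treated with GDC0032 or with the vehicle DMSO. The titles do not say whether the cells of these libraries received DMSO. Whether the 3 libraries of a group came from separate cultures is not stated. The p-values therefore reflect the spread among these libraries alone, and that spread may be technical.

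AMPK is a heterotrimeric kinase that responds to a low energy charge of the cell. Its α subunit carries the kinase domain, its β subunit is the scaffold and binds glycogen, and its γ subunit binds AMP, ADP and ATP. Active AMPK slows anabolic steps such as lipid synthesis and mTORC1 signaling, and favors catabolism and autophagy. PGC-1α and PGC-1β are transcriptional coactivators with no DNA-binding domain of their own. They act through factors such as ERRα and NRF-1, which turn on nuclear genes of respiration, among them *TFAM*. The product of *TFAM* enters mitochondria, packages mitochondrial DNA and takes part in its transcription.

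The 6 libraries held 12808922 to 15241394 counts, and 3 counts stood for 0.198 to 0.236 CPM, the count scaled to a common library size. Levels are in CPM normalized by TMM, which corrects for differences in library composition. IGROV1Sen replicate 1 and IGROV1Res replicate 3 stood apart by their share of counts from genes encoded by mitochondrial DNA. It was 7.02% and 6.94%, against 10.1% to 12.8% in the other 4 libraries. IGROV1Sen replicates 2 and 3 were close to each other, differing across genes by a chi-square of 1.49 per degree of freedom, against 12.4 to 34.4 for the other pairs of one group. IGROV1Res replicate 2 differed from replicate 1 by 12.4 and from replicate 3 by 13.3, so the chi-square did not single out IGROV1Res replicate 3. As a check of the label, *PAX8*, a transcription factor of Müllerian epithelium, averaged 832 CPM in IGROV1Sen and 819 CPM in IGROV1Res. Other epithelial markers were uneven, with *KRT18* at 295 and 1063 CPM, and with the adhesion genes *EPCAM* and *CDH1* under 2 CPM on average in both groups. *MUC16* and *WT1* were not among the counted genes. Of 16 markers of other cell types 5 were counted, and of these the endothelial cadherin gene *CDH5* was the highest, at 113 and 165 CPM.

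For some of the genes that changed, promoter windows of RefSeq on GRCh38.p14, each around an annotated start, are given. They are those of the gene that fell and of both AMPK subunit genes that rose. Of *PRKAG2* only the window that held matches is given. The windows of *ESRRA* and *TFAM*, which also rose, held no match and are left out. A start called the only one is the only one with a window. The gene coordinates of *PRKAB1* given below begin upstream of its window, at 119667753. A window holds 250 bases before an annotated start and 50 from it, 5′ to 3′ on the strand of the gene. Windows were found for 9 of the 10 genes, 14 windows in all, and *NRF1* had none. Each was searched on both strands for the core of an ERR element (AAGGTCA), an NRF-1 element (GCGCATGCG), a cyclic AMP response element (TGACGTCA), an ETS element (CCGGAAG) and an E-box (CACGTG). Capitals mark the matches, which do not overlap one another, and a match on the strand opposite the gene appears as its reverse complement.
*PPARGC1A*, start inside the gene, chr4:23881052-23881351, minus strand: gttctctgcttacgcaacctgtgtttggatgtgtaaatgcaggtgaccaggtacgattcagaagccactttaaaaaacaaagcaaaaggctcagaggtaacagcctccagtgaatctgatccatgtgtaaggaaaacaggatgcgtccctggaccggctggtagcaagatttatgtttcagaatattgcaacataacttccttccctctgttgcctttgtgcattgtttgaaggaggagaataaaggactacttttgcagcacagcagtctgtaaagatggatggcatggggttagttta
*PPARGC1A*, far upstream start, chr4:24472856-24473155, minus strand: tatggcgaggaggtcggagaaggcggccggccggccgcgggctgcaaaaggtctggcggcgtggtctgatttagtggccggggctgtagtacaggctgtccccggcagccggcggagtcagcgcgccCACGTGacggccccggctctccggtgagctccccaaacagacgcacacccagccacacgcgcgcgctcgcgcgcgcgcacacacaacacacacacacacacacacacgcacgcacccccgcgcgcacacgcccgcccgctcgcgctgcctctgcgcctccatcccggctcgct
*PRKAB1*, only start, chr12:119667883-119668182, plus strand: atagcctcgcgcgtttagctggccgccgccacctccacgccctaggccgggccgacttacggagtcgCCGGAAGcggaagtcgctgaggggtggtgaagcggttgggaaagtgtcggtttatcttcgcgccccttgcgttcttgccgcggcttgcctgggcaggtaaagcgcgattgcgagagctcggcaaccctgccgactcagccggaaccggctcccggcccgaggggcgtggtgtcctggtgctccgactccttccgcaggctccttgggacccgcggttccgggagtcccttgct
*PRKAG2*, the third of its 5 starts in the table, chr7:151736214-151736513, minus strand: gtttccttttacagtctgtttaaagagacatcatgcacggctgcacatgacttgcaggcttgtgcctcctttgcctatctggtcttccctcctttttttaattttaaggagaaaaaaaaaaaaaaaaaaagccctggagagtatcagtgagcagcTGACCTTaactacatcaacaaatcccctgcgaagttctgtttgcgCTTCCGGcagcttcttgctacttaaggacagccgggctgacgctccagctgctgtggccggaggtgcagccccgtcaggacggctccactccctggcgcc

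The start of *PPARGC1A* inside the gene had a GC content of 44.0% with 4 CpG and none of the 5 motifs. The far upstream start had a GC content of 72.0% with 42 CpG, beside a median GC content of 58.7% over all windows, and an E-box from -123 to -118 relative to the start. *PRKAB1* held an ETS element from -183 to -177. The *PRKAG2* window held the ERR core from -95 to -89 and an ETS element from -50 to -44, both on the strand opposite the gene. The only other match in the 10 genes was an ETS element of *PRKAG1*, from -110 to -104. Over all 35116 windows, 3.92% held the ERR core, 10.3% the ETS element and 7.26% the E-box. The NRF-1 element (1.92% of all windows) and the cyclic AMP response element (1.85%) were matched in none of the windows of the 10 genes. A match is a description of the letters in these windows. The counts are per gene and do not tell which start was used.

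Across the 10 genes, 4 were upregulated and 1 was downregulated in IGROV1Res at a Benjamini-Hochberg adjusted p under 0.05 in edgeR's quasi-likelihood test. Over all 13791 genes tested, 17.4% were upregulated and 18.3% were downregulated, 35.7% together. In 6 of the 10 genes the 2 groups did not overlap, beside 47.8% of all genes tested. The median log2 fold change of IGROV1Res over IGROV1Sen was 0.21 for the 10 genes and -0.01 for all genes. In bulk RNA, fewer cells that express a gene and less RNA per cell cannot be told apart.

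**Figure D1:**
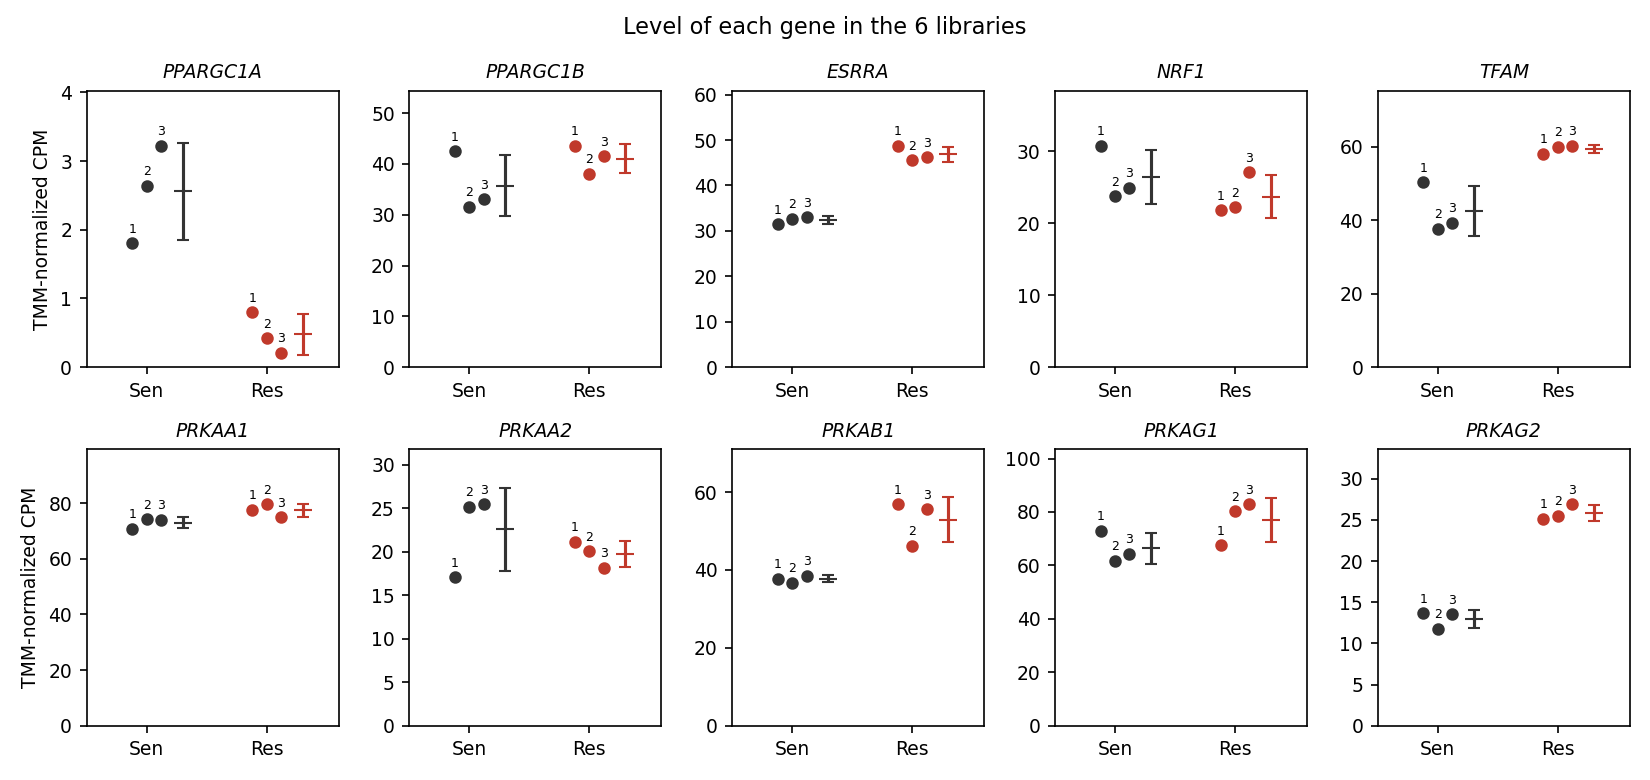
TMM-normalized CPM of the 10 genes in IGROV1Sen (Sen, black) and IGROV1Res (Res, red). Points are libraries with their replicate number, bars are mean and SD of 3 libraries, and every vertical axis starts at 0 with its own scale. The groups are apart for *PPARGC1A*, *ESRRA*, *TFAM*, *PRKAA1*, *PRKAB1* and *PRKAG2*, of which *PRKAA1* did not pass the test.

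The coactivators did not move together. *PPARGC1A* (ENSG00000109819, chr4:23755041-23904089 of GRCh38, minus strand) encodes PGC-1α, the member best known for induction by fasting, cold and exercise. It had 23, 40 and 46 counts in IGROV1Sen replicates 1 to 3, and 11, 6 and 3 counts in IGROV1Res replicates 1 to 3. These are 1.81, 2.64 and 3.22 CPM in IGROV1Sen and 0.804, 0.420 and 0.210 CPM in IGROV1Res. Every resistant library was below every sensitive one, and the lowest, IGROV1Res replicate 3, was at the level of 3 counts. The mean level fell from 2.56 ± 0.711 to 0.478 ± 0.301 CPM (SD, n = 3 libraries each), a log2 fold change of -2.42 with a standard error of 0.43, a 95% interval of -3.38 to -1.45 and an adjusted p of 0.00212 (edgeR). The gene was called in all 16 of the other settings in which it was tested. With at least 10 counts required in every library it was not tested. Per kilobase of exon, its mean level stood at percentile 4.77 of all genes tested in IGROV1Sen and at percentile 0.589 in IGROV1Res. Genes low in both groups had been filtered out before this ranking, so a gene low in IGROV1Res alone ranks near its bottom there.

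*PPARGC1B* (ENSG00000155846, chr5:149730298-149855022, plus strand) encodes PGC-1β, the related coactivator of respiratory and lipid genes. Its level was 42.5, 31.6 and 33.1 CPM in IGROV1Sen and 43.6, 38.0 and 41.5 CPM in IGROV1Res. The groups overlapped, since IGROV1Sen replicate 1 lay within the resistant range. The means were 35.7 ± 5.94 and 41.0 ± 2.79 CPM, with a log2 fold change of 0.20 (95% interval -0.08 to 0.48, adjusted p = 0.239 in edgeR). Without IGROV1Sen replicate 1 the log2 fold change was 0.35 and passed the test (adjusted p = 0.0182, edgeR).

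Per kilobase of exon, which allows levels of different genes to be compared, *PPARGC1A* was the lower of the pair in every library. Its share of the summed level of both genes was 4.80%, 9.03% and 10.4% in IGROV1Sen and 2.14%, 1.29% and 0.596% in IGROV1Res. The groups did not overlap. The mean share was 8.06% ± 2.90 and 1.34% ± 0.774 (SD, n = 3 each, two-sided exact permutation p = 0.1, the smallest that 3 against 3 allows). The summed level was 3.01 ± 0.407 and 3.23 ± 0.232 CPM per kb (exact permutation p = 0.5).

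Of the DNA-binding partners, the gene of ERRα was upregulated and that of NRF-1 did not pass the test. *ESRRA* (ENSG00000173153, chr11:64305572-64316743, plus strand) encodes ERRα, an orphan nuclear receptor that recruits PGC-1 to genes of oxidative metabolism. It stood at 31.5, 32.6 and 33.0 CPM in IGROV1Sen and at 48.7, 45.6 and 46.2 CPM in IGROV1Res. The groups were well apart and each was narrow. The mean rose from 32.4 ± 0.809 to 46.8 ± 1.67 CPM, with a log2 fold change of 0.53 (standard error 0.08, 95% interval 0.35 to 0.72, adjusted p = 0.00102 in edgeR). All 17 other settings kept the call. On the opposite strand *TRMT112* shares 284 of its 3030 exon bases, and no source used here gives whether the counting used strand. *TRMT112* itself was at 110 ± 9.91 and 121 ± 11.3 CPM (log2 fold change 0.14, adjusted p = 0.315 in edgeR).

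*NRF1* (ENSG00000106459, chr7:129611714-129757082, plus strand) encodes nuclear respiratory factor 1, an activator of respiratory chain genes and of *TFAM*. Its level was 30.8, 23.7 and 24.9 CPM in IGROV1Sen and 21.8, 22.2 and 27.1 CPM in IGROV1Res. The groups overlapped, and the highest library of each was the one that stood apart by its mitochondrial share. The means were 26.5 ± 3.75 and 23.7 ± 2.97 CPM, with a log2 fold change of -0.16 (95% interval -0.46 to 0.15, adjusted p = 0.399 in edgeR).

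*TFAM* (ENSG00000108064, chr10:58385022-58399221, plus strand) encodes mitochondrial transcription factor A. It had 641, 571 and 562 counts, or 50.4, 37.7 and 39.4 CPM, in IGROV1Sen. In IGROV1Res it had 796, 856 and 860 counts, or 58.2, 60.0 and 60.3 CPM. The groups did not overlap, with IGROV1Sen replicate 1 nearest to the resistant libraries. The mean rose from 42.5 ± 6.89 to 59.5 ± 1.13 CPM, with a log2 fold change of 0.49 (standard error 0.11, 95% interval 0.23 to 0.74, adjusted p = 0.00911 in edgeR). All 17 other settings kept the call, with adjusted p up to 0.0454.

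**Figure D2:**
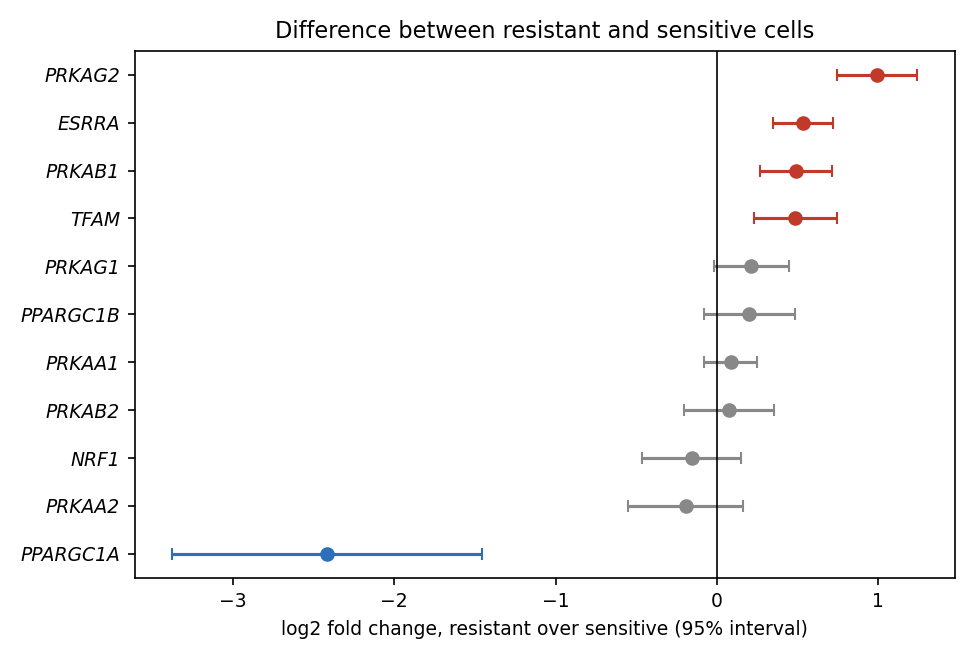
Log2 fold change of IGROV1Res over IGROV1Sen for the 10 genes and *PRKAB2*, with 95% intervals from edgeR's quasi-likelihood fit over 3 libraries per group. Red is upregulated, blue downregulated and grey not called. *PRKAG2* is highest at 0.99 and *PPARGC1A* lowest at -2.42.

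In AMPK, one β and one γ gene rose and neither α gene passed the test. *PRKAA1* (ENSG00000132356, chr5:40759379-40798374, minus strand) encodes α1, the widely expressed catalytic subunit. Its level was 70.9, 74.3 and 74.1 CPM in IGROV1Sen and 77.7, 79.6 and 75.1 CPM in IGROV1Res. The groups did not overlap, yet the gap was small. The means were 73.1 ± 1.94 and 77.5 ± 2.28 CPM, with a log2 fold change of 0.08 (95% interval -0.08 to 0.25, adjusted p = 0.406 in edgeR).

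*PRKAA2* (ENSG00000162409, chr1:56645322-56715335, plus strand) encodes α2, the catalytic subunit that prevails in skeletal and heart muscle. It was at 17.1, 25.2 and 25.4 CPM in IGROV1Sen and at 21.1, 20.03 and 18.1 CPM in IGROV1Res. IGROV1Sen replicate 1 was the lowest of the 6 libraries and replicates 2 and 3 were the highest. The means were 22.6 ± 4.76 and 19.8 ± 1.504 CPM, with a log2 fold change of -0.19 (95% interval -0.55 to 0.16, adjusted p = 0.375 in edgeR). Without IGROV1Sen replicate 1 it was -0.35 and passed the test (adjusted p = 0.0281, edgeR). *PRKAA2* made up 17.7% ± 2.80 of the α mRNA per kilobase in IGROV1Sen and 15.2% ± 0.770 in IGROV1Res (exact permutation p = 0.4).

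*PRKAB1* (ENSG00000111725, chr12:119667753-119681630, plus strand) encodes the β1 scaffold. It had 480, 556 and 550 counts, or 37.7, 36.7 and 38.5 CPM, in IGROV1Sen. In IGROV1Res it had 778, 660 and 794 counts, or 56.8, 46.2 and 55.6 CPM. Every resistant library was above every sensitive one, with IGROV1Res replicate 2 the lowest of its group. The mean rose from 37.7 ± 0.901 to 52.9 ± 5.81 CPM, with a log2 fold change of 0.49 (standard error 0.10, 95% interval 0.27 to 0.71, adjusted p = 0.00439 in edgeR). All 17 other settings kept the call.

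The other β gene, *PRKAB2*, which encodes β2 and is not among the 10, was at 33.1, 44.4 and 42.6 CPM in IGROV1Sen and at 42.9, 45.5 and 38.4 CPM in IGROV1Res. Its groups overlapped (log2 fold change 0.08, adjusted p = 0.664 in edgeR), and without IGROV1Sen replicate 1 the sign turned, to -0.04. The share of *PRKAB1* in the β mRNA per kilobase was 49.9%, 42.0% and 44.2% in IGROV1Sen and 53.7%, 47.0% and 55.9% in IGROV1Res. These shares overlapped, with means of 45.4% ± 4.11 and 52.2% ± 4.61 (exact permutation p = 0.2).

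*PRKAG1* (ENSG00000181929, chr12:49002274-49018825, minus strand) encodes γ1, the widely expressed nucleotide-binding subunit. Its level was 73.0, 61.7 and 64.4 CPM in IGROV1Sen and 67.6, 80.3 and 82.9 CPM in IGROV1Res. The groups overlapped because IGROV1Res replicate 1 was below IGROV1Sen replicate 1. The means were 66.4 ± 5.88 and 76.9 ± 8.20 CPM, with a log2 fold change of 0.21 (95% interval -0.02 to 0.45, adjusted p = 0.140 in edgeR). Without IGROV1Sen replicate 1 it was 0.29 (adjusted p = 0.0464), and without IGROV1Res replicate 1 it was 0.30 (adjusted p = 0.0409, edgeR), and both passed the test.

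*PRKAG2* (ENSG00000106617, chr7:151556111-151877125, minus strand) encodes γ2, known for mutations that cause a glycogen storage cardiomyopathy. It had 174, 178 and 193 counts, or 13.7, 11.8 and 13.5 CPM, in IGROV1Sen. In IGROV1Res it had 344, 364 and 384 counts, or 25.1, 25.5 and 26.9 CPM. No other of the 10 genes rose as much, and both groups were narrow. The mean rose from 13.0 ± 1.07 to 25.8 ± 0.933 CPM, a fold of 1.99, with a log2 fold change of 0.99 (standard error 0.11, 95% interval 0.74 to 1.24, adjusted p = 0.000169 in edgeR). All 17 other settings kept the call. The antisense gene *PRKAG2-AS1*, which shares 84 exon bases with it, had 4, 1 and 8 counts in IGROV1Sen and 0 in each IGROV1Res library, and was too low to be tested.

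Within the γ mRNA per kilobase, the share of *PRKAG2* was 10.4%, 10.6% and 11.5% in IGROV1Sen and 18.8%, 16.5% and 16.8% in IGROV1Res. The groups did not overlap, and *PRKAG1* stayed the major γ mRNA in every library. The mean share was 10.9% ± 0.600 and 17.3% ± 1.246, a difference of 6.48 percentage points (exact permutation p = 0.1, the smallest possible). *PRKAG3*, the γ3 gene of glycolytic muscle, was not among the counted genes.

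Summed per subunit, the α mRNA was 13.6 ± 0.803 CPM per kb in IGROV1Sen and 13.9 ± 0.474 in IGROV1Res (SD, n = 3 each, exact permutation p = 0.5). The β sum was 13.4 ± 1.09 and 16.2 ± 0.653 CPM per kb, and the γ sum was 17.8 ± 1.53 and 22.2 ± 2.07 CPM per kb, each with an exact permutation p of 0.1. In both of these sums the lowest resistant library was above the highest sensitive one. In the γ sum the gap was small, from 19.5 CPM per kb in IGROV1Sen replicate 1 to 19.9 in IGROV1Res replicate 1.

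**Figure D3:**
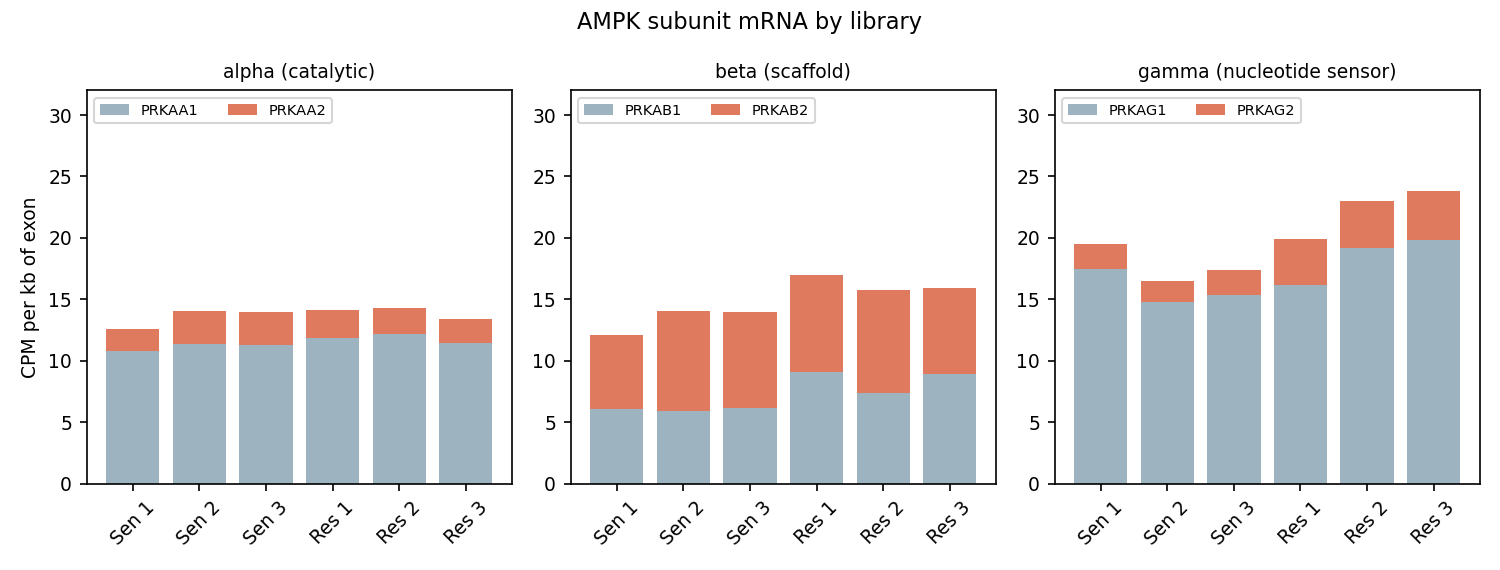
Stacked bars give the level, in CPM per kb of exon, of the α, β and γ subunit mRNAs of AMPK in each library of IGROV1Sen (Sen) and IGROV1Res (Res). The α bars run from 12.6 to 14.3, while the *PRKAG2* share of the γ bars is 10.4% to 11.5% in Sen and 16.5% to 18.8% in Res.

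Per kilobase of exon, *PRKAG1* was the highest of the 10 genes in both groups, at 15.9 CPM per kb in IGROV1Sen and 18.4 in IGROV1Res, and *PPARGC1A* the lowest, at 0.235 and 0.0440. In IGROV1Sen the order with *PRKAB2* included ran from *PRKAG1* through *PRKAA1* (11.1), *ESRRA* (10.7), *TFAM* (7.58), *PRKAB2* (7.33), *NRF1* (6.42), *PRKAB1* (6.03), *PPARGC1B* (2.77), *PRKAA2* (2.41) and *PRKAG2* (1.93) to *PPARGC1A*. Neighbours overlapped between libraries from *PRKAA1* to *ESRRA*, from *TFAM* to *PRKAB1*, and from *PPARGC1B* to *PRKAG2*. In IGROV1Res *ESRRA* (15.5 CPM per kb) stood above *PRKAA1* (11.8), and *PRKAG2* (3.83) above *PPARGC1B* (3.18) and *PRKAA2* (2.11). There *PRKAB1* (8.47) and *PRKAB2* (7.74) were the only neighbours that overlapped.

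The libraries that stood apart held the same rank within their groups in most of these genes, some called ones included. IGROV1Sen replicate 1 and IGROV1Res replicate 3 were each the highest of their group in *NRF1*, *TFAM*, *PRKAG1* and *PRKAG2*. They were each the lowest of their group in *PPARGC1A*, *PRKAA1*, *PRKAA2* and *PRKAB2*. Some margins were small. *PRKAG2* was at 13.7 CPM in IGROV1Sen replicate 1 and 13.5 in replicate 3, and *TFAM* at 60.3 CPM in IGROV1Res replicate 3 and 60.0 in replicate 2. The called genes *ESRRA* and *PRKAB1* did not share this order. Without both libraries that stood apart, 5 of the 10 genes were upregulated and 2 downregulated. The additions were *PPARGC1B* (log2 fold change 0.34, adjusted p = 0.0285, edgeR) and *PRKAA2* (-0.30, adjusted p = 0.0499, edgeR). Calls over all genes rose too, to 2946 upregulated and 2905 downregulated of 13999 tested, from 2394 and 2530 of 13791 with all 6 libraries. The 5 genes called in all 6 libraries were also called without the libraries that stood apart.

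Of 18 genes upstream of AMPK, 2 were upregulated and 3 downregulated, 27.8% together beside 35.7% of all genes tested, with a median log2 fold change of -0.06. The sestrin genes *SESN1*, from 22.5 ± 0.803 to 39.7 ± 5.22 CPM, and *SESN2*, from 53.8 ± 5.998 to 73.8 ± 11.4 CPM, rose by 0.82 and 0.45 on the log2 scale (adjusted p = 0.000577 and 0.0199, edgeR). The call of *SESN2* was lost with a replicate block (adjusted p = 0.0821, edgeR). The other sestrin gene, *SESN3*, added after its values were seen, was at 53.4 ± 15.6 and 31.8 ± 11.1 CPM (log2 fold change -0.75, adjusted p = 0.0512, edgeR). Sestrins are stress-induced proteins that favor AMPK and restrain mTORC1. *FNIP2*, a partner of folliculin, fell from 87.3 ± 2.54 to 42.9 ± 11.5 CPM (log2 fold change -1.03, adjusted p = 0.000985, edgeR). *CAB39L* (-0.51), of the LKB1 complex, and *CAMKK2* (-0.26), a calcium-dependent kinase of AMPK, were also lower, but each lost the call in 12 of the 17 other settings. *STK11*, which encodes LKB1 and was added after its values were seen, was at 134 ± 2.45 and 125 ± 7.42 CPM (log2 fold change -0.10, adjusted p = 0.362, edgeR).

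Of 12 tested genes of AMPK-related kinases, most of which LKB1 also activates, 1 was upregulated and 3 were downregulated, 33.3% together beside 35.7% of all genes, with a median of -0.04. *MARK1*, a microtubule-affinity kinase gene, had 0 counts in each IGROV1Sen library and 23, 25 and 18 in IGROV1Res, at least 21.9-fold higher against 3 counts over the group. *BRSK1*, of a kinase of neuronal polarity, fell from 6.76 ± 1.78 to 2.75 ± 0.0949 CPM (log2 fold change -1.30, adjusted p = 0.00236, edgeR). *MARK3* (-0.39) and *SNRK* (-0.34) fell by less, and *SNRK* lost the call in 6 of 17 settings.

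Of 23 substrate genes of AMPK, 3 were upregulated and 3 downregulated, 26.1% together beside 35.7% of all genes, with a median of -0.09. *TBC1D4*, whose product AS160 holds back GLUT4 vesicles, had 6, 14 and 12 counts in IGROV1Sen and 92, 165 and 143 in IGROV1Res. The groups were far apart, and the mean level rose from 0.746 ± 0.241 to 9.43 ± 2.47 CPM (log2 fold change 3.63, edgeR). *GYS1*, of glycogen synthase, rose by 0.60 and *RPTOR*, of the mTORC1 subunit raptor, by 0.39 on the log2 scale, the latter lost in 4 of 17 settings. *ULK1*, of the kinase that starts autophagy, fell from 55.4 ± 12.9 to 32.4 ± 6.48 CPM (log2 fold change -0.78, adjusted p = 0.0117, edgeR), a call lost with a replicate block (adjusted p = 0.0566, edgeR). *PFKFB3*, of a glycolytic activator, and *SREBF1*, of a lipogenic factor, fell by 0.53 and 0.52 on the log2 scale, and *SREBF1* lost the call without IGROV1Res replicate 3 (adjusted p = 0.0520, edgeR). The downregulated substrates numbered 7 without IGROV1Sen replicate 1 and 6 without IGROV1Res replicate 1, and without both libraries that stood apart 5 were upregulated and 6 downregulated. All genes downregulated numbered 2992, 2505 and 2905 in these fits, beside 2530 with all 6 libraries. All genes upregulated without both libraries numbered 2946, beside 2394 with all 6.

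Of 32 tested genes of partners and regulators of PGC-1, 3 were upregulated and 10 downregulated, 40.6% together beside 35.7% of all genes, with a median of -0.13. *MITF*, a factor that drives *PPARGC1A* in melanoma, fell from 133 ± 7.26 to 56.4 ± 4.16 CPM, a log2 fold change of -1.24. *PPARA* (-0.86) and *THRB* (-0.85), of nuclear receptors that PGC-1 coactivates, and *LPIN1* (-0.84), of the coactivator lipin-1, also fell. *MYBBP1A* (0.45) and *KAT2A* (0.36), of a repressor and an acetylase of PGC-1α, and *PPARD* (0.43), of a nuclear receptor, rose, *KAT2A* losing the call in 4 and *PPARD* in 1 of the 17 settings. The downregulated genes numbered 6 without IGROV1Sen replicate 2, without IGROV1Sen replicate 3, without IGROV1Res replicate 2 and without IGROV1Res replicate 3. In these same fits the upregulated genes numbered 4, 2, 1 and 4, and 2 without IGROV1Res replicate 1. In the same order, all genes downregulated numbered 1864, 1814, 1855 and 2006, beside 2530 with all 6 libraries. All genes upregulated numbered 1572, 1538, 1712 and 1878, and 2391 without IGROV1Res replicate 1, beside 2394.

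Of 38 tested targets of PGC-1, ERR and NRF-1, 11 were upregulated and 2 downregulated, 34.2% together beside 35.7% of all genes, with a median of 0.16. Over all genes, 17.4% were upregulated and 18.3% downregulated. *CYCS*, of cytochrome c, rose from 131 ± 22.3 to 198 ± 14.7 CPM (log2 fold change 0.60, adjusted p = 0.00437, edgeR). *IDH3A* (0.56), of a citric acid cycle enzyme, and *VEGFA* (0.65), of an angiogenic factor, rose too. *CPT1A*, of the rate-limiting step of mitochondrial fatty acid import, fell from 15 ± 1.66 to 7.61 ± 3.77 CPM (log2 fold change -0.98, adjusted p = 0.0252, edgeR), and *ETFDH*, of electron transfer from fatty acid oxidation, fell by 0.41 on the log2 scale. *CPT1A* lost the call without IGROV1Sen replicate 2, without IGROV1Res replicate 2, without IGROV1Res replicate 3 and without both libraries that stood apart (adjusted p up to 0.107, edgeR), and *ETFDH* lost it in 7 of the 17 settings. The number of upregulated targets depended on single libraries, and so did that of all genes. Upregulated targets numbered 18 without IGROV1Sen replicate 1 (3023 of all genes), 3 without IGROV1Sen replicate 2 (1572) and 3 without IGROV1Sen replicate 3 (1538). They numbered 5 without IGROV1Res replicate 2 (1712), 7 without IGROV1Res replicate 3 (1878) and 17 without both libraries that stood apart (2946). With all 6 libraries, 2394 of all genes were upregulated. In the fits with libraries left out, downregulated targets numbered 0 to 3.

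Of 20 genes that maintain or express mitochondrial DNA, the processes in which TFAM acts, 6 were upregulated and 2 downregulated, 40% together beside 35.7% of all genes, with a median of 0.14. This list overlaps the targets above in *TFB1M*, upregulated and so counted in both, and *TFB2M*, not called. *SSBP1*, of the mitochondrial single-strand binding protein, rose from 69.6 ± 9.57 to 103 ± 10.1 CPM (log2 fold change 0.57, adjusted p = 0.00426, edgeR). *MTERF3* (0.48), *TOP1MT* (0.45) and *MGME1* (0.32) rose as well, and *MGME1* lost the call in 4 of 17 settings. *DNA2* (-0.28), of a nuclease and helicase, and *POLG* (-0.25), of the mitochondrial polymerase, fell, each with a call lost in at least 7 of 17 settings. The upregulated genes numbered 3 without IGROV1Sen replicate 2 or without replicate 3 and 4 without IGROV1Res replicate 3. None of the 20 was downregulated in these fits. All genes upregulated numbered 1572, 1538 and 1878, and all genes downregulated 1864, 1814 and 2006. With all 6 libraries these were 2394 and 2530.

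None of 15 genes encoded by mitochondrial DNA passed the test in edgeR, 0 had an unadjusted p under 0.05, and DESeq2 called 1 higher. Their log2 fold changes ran from -0.65 for *MT-CYB* (adjusted p = 0.171) to 0.45 for *MT-ND2* (adjusted p = 0.126, edgeR), with a median of -0.17. All their counts together took 10.5% ± 3.07 of a library in IGROV1Sen and 9.93% ± 2.91 in IGROV1Res (exact permutation p = 0.9). The spread within each group was larger than the difference, and the libraries that stood apart were the low ones of both groups. Without IGROV1Sen replicate 1 alone 2 of the 15 were downregulated, beside 2992 of all genes. Without IGROV1Res replicate 3 alone 2 were upregulated, beside 1878 of all genes. Without both libraries, 2 of the 15 were upregulated and 3 downregulated, beside 2946 and 2905 of all genes. In that fit *MT-CYB* was lower (-0.68, adjusted p = 0.00250) and *MT-ND2* higher (0.49, adjusted p = 0.0136, edgeR).

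**Figure D4:**
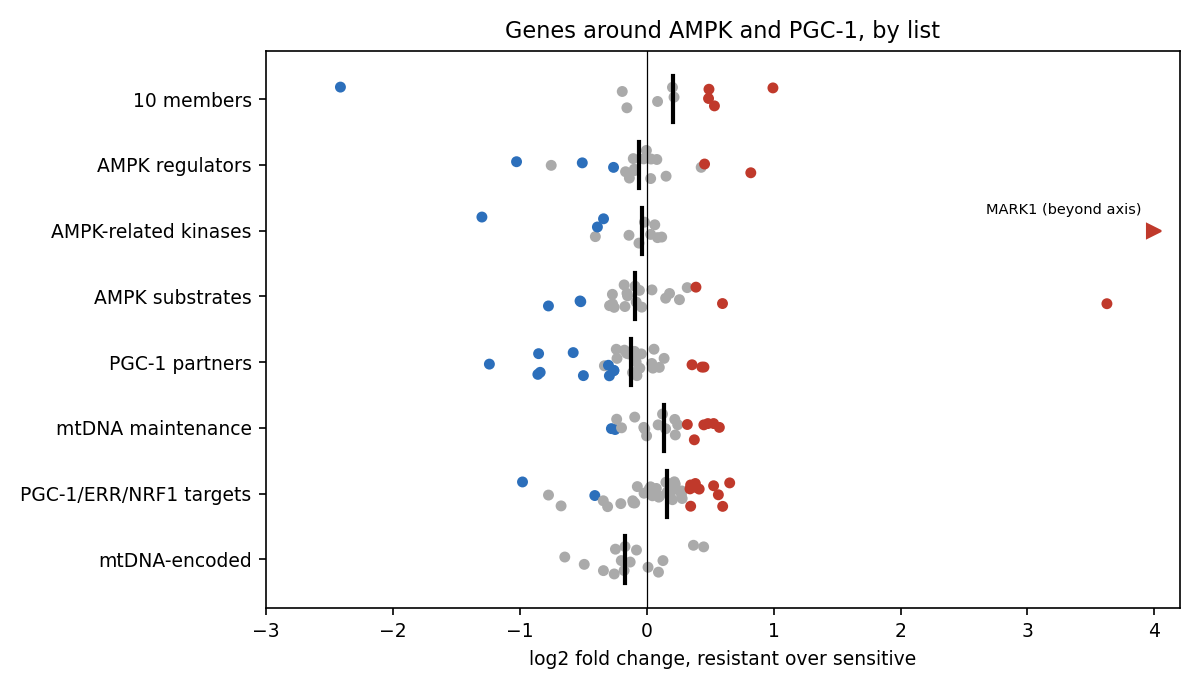
Log2 fold change of IGROV1Res over IGROV1Sen for the genes of each list, 1 point per tested gene, with red upregulated, blue downregulated and grey not called. Black bars are medians, from -0.17 for genes encoded by mitochondrial DNA to 0.21 for the 10 genes, and *MARK1*, with no counts in IGROV1Sen, lies beyond the axis.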

How the data were processed

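Total RNA of 6 IGROV1 samples was sequenced, 3 libraries per group. The authors deposited raw read counts per Ensembl gene after a quality filter whose rule, like the aligner and the counting tool, is not given in the sources used here. Per the submitters' processing notes, edgeR and the build hg18 were used. A second table deposited by the authors holds their log2 fold changes and average log2 CPM, a score (the likelihood ratio) and p-values. Only its gene symbols were used.

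Groups were compared with edgeR 4.0.16 under R 4.3.3 (filterByExpr with a minimum count of 10 and a minimum total of 15, TMM, glmQLFit, glmQLFTest, condition as the only term), with p-values adjusted over 13791 genes. Standard errors were obtained by dividing the size of the log2 fold change by √F. CPM per kb use the exon union of GENCODE 29, which also gave gene coordinates. Shares and sums were compared by two-sided exact permutation tests. The totals per library limit the precision, and the level of 3 counts covers counting error only. Alternatives were a likelihood ratio test, DESeq2 1.42.0, other normalizations, filters and thresholds, a replicate block, fits without single libraries or without both that stood apart, summing of the libraries that were close, and leaving out mitochondrial DNA. Steps were tested on simulated data. The 10 genes, the lists, written from general knowledge, and the tests were chosen with earlier results of these data known. Named were the 10 genes, *PRKAB2*, *PRKAG3*, and, per list, the 4 or fewer called genes of each direction with the smallest adjusted p, and the genes at its ends. Of these, the ones that matter most are given, and the result of 1 gene under the rule is not reported here.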

Additional observations from a re-analysis of the deposited data

How the results depend on the processing

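The calls of *PPARGC1A*, *ESRRA*, *TFAM*, *PRKAB1* and *PRKAG2* held in every alternative fit in which each was tested. Their log2 fold changes were -2.99 to -2.06, 0.51 to 0.56, 0.40 to 0.63, 0.44 to 0.58 and 0.92 to 1.03. The stricter thresholds were applied only to the counts over all genes. Among these called genes, only *PPARGC1A* (-2.42) changed by 1 or more on the log2 scale with all 6 libraries, *PRKAG2* being at 0.99. Leaving out each library in turn gave 0.12 to 0.35 for *PPARGC1B*, -0.35 to -0.10 for *PRKAA2* and 0.16 to 0.30 for *PRKAG1*, which passed the test without the libraries named above. Without both libraries that stood apart, *PPARGC1B* (0.34) and *PRKAA2* (-0.30) passed as well. *PRKAB2* turned sign without IGROV1Sen replicate 1 (-0.0396). Over all genes, 1373 were upregulated and 1584 downregulated at an adjusted p under 0.01, and 620 and 811 changed by 1 or more on the log2 scale. Leaving out each library gave 1538 to 3023 upregulated and 1814 to 2992 downregulated genes. Without division by exon length, the share of *PRKAG2* differed by 8.85 percentage points. Leaving out each library moved the difference in the share of counts from mitochondrial DNA between -2.37 and 0.89 percentage points, and it was 0.41, 0.13 and 0.89 without IGROV1Sen replicate 2, IGROV1Sen replicate 3 and IGROV1Res replicate 3. The cause was not tested.

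Replicate numbers were not taken as pairs, since the deviations of samples with the same number correlated at -0.43, 0.10 and -0.40 over genes. With a replicate block, 1530 genes were upregulated and 1732 downregulated, and 4 of the 10 genes were upregulated and 1 downregulated, as without it. With the block, the targets of PGC-1 had 4 upregulated and 1 downregulated genes and its partners 2 and 6. The named genes outside the 10 gave 726 values under the alternatives, of which 635 kept direction and call, 83 lost the call, 7 gained one and 1 turned sign. With IGROV1Sen replicates 2 and 3 summed, 3 targets of PGC-1 were upregulated, beside 1605 of all genes. At 20 counts over the IGROV1Res libraries, low depth limits the precision of *PPARGC1A*.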

Other observations

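*CDH5*, which encodes VE-cadherin of endothelial junctions, was among the counted markers of other cell types and stood at 127, 106 and 107 CPM in IGROV1Sen and at 165, 168 and 162 CPM in IGROV1Res. The groups did not overlap, and the mean rose from 113 ± 11.7 to 165 ± 2.69 CPM (SD, n = 3 each, log2 fold change 0.54, adjusted p = 0.00146 in edgeR). *EPCAM*, an epithelial adhesion gene, had 7, 11 and 13 counts in IGROV1Sen and 42, 24 and 15 in IGROV1Res. The simple epithelial keratin gene *KRT8* was at 7.94 and 53.8 CPM on average. Their part in the values of the energy genes was not tested.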
